A study of Homo sapiens with 15 samples.

Results

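The perilipins and other coat genes of the lipid droplet were examined in C4-2 cells, a LNCaP derivative that models prostate cancer growing without androgen supply. The set had 8 members, the 5 perilipins PLIN1, PLIN2, PLIN3, PLIN4 and PLIN5 together with CIDEB, CIDEC and BSCL2. They were taken by gene symbol from the deposited tables, and all 8 were found among 20806 gene entries. The tables give them the gene numbers 5346 for PLIN1, 123 for PLIN2, 10226 for PLIN3, 729359 for PLIN4, 440503 for PLIN5, 27141 for CIDEB, 63924 for CIDEC and 26580 for BSCL2. Poly(A) RNA was sequenced from 5 lines with 3 libraries each, and the study asked what loss of adipose triglyceride lipase (ATGL, gene PNPLA2) changes and what its return restores. The lines were the ATGL knockout carrying the S404A protein (KO_S404A), the knockout carrying wild-type ATGL (KO_WT), the knockout carrying S47A, described by the submitters as lipolytically inactive (KO_S47A), the knockout alone (KO), and a scramble control (Scramble). All 5 were C4-2 lines kept in medium with 5 mM glucose and 5% dialyzed serum. Each genotype was 1 line. Whether a line was a clone or a pool, and what drives the added ATGL, is not stated among the sources used.

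Lipid droplets store triglyceride and sterol ester in a core covered by a phospholipid monolayer, and coat proteins on that surface decide how far lipases reach the core. Perilipins sit on the monolayer, CIDE proteins join droplets and help enlarge them, and seipin, the product of BSCL2, shapes droplets where they bud from the endoplasmic reticulum. ATGL opens the breakdown of the stored triglyceride, and several coat genes are known targets of the fatty-acid-sensing PPAR receptors.

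Counts in genes totalled 40846694 to 64345775 per library. PNPLA2 checked the labels. It averaged 413 ± 98.3 CPM in KO_S404A, 220 ± 18.1 in KO_WT, 129 ± 30.6 in KO_S47A, 11.3 ± 1.99 in KO and 48.9 ± 4.76 in Scramble (SD, n = 3 each). CPM are counts scaled to a common library total, here after TMM, which corrects library size for composition. For KO minus Scramble its log2 fold change was -2.11 (SE 0.20, adjusted p = 3.54e-05, edgeR). The 8 prostate luminal markers were all detected, and their CPM summed per library to 5127 to 6096 for KO_S404A, 6375 to 6718 for KO_WT, 5407 to 7109 for KO_S47A, 5415 to 6196 for KO and 7314 to 7892 for Scramble. The 6 adipocyte markers outside the members summed to 4.95 to 11.0 CPM, with CFD averaging 5.58, LIPE 2.07 and ADIPOQ at 0 counts in every library. The 13 markers of other cell types summed to 16.8 to 39.1 CPM. Of these, COL1A1 averaged 15.5 CPM and VWF 9.51 CPM, and CD3E and ALB were at 0 counts in every library. Libraries numbered 3 differed from the others in most lines. In the chi-square of gene counts between libraries, divided by its degrees of freedom, libraries 1 and 2 were closer to each other than to library 3 in KO_WT, KO_S47A, Scramble and, by a small margin (41.9 against 49.4 and 65.0), KO. In KO_S404A libraries 1 and 2 (156) were farther apart than 2 and 3 (147), so library 1 stood as far out as library 3. A model with a term for that number called 46.1% of 14246 tested genes, and nothing in the labels says what the number stands for. The labels do not say either that a line's libraries came from separate cultures, and p-values therefore describe just the spread among these libraries, which may be technical.

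The members differed by orders of magnitude per unit of gene length, and 3 of the 8 made up nearly all of their signal. Mean FPKM over the 15 libraries, the authors' unit scaled to gene length and library total, was 35.9 for PLIN3, 9.70 for CIDEB, 1.16 for BSCL2, 0.131 for PLIN4 and 0.0653 for PLIN2. The remaining members lay lower, at 0.0256 for PLIN1, 0.00216 for PLIN5 and 0.00172 for CIDEC. PLIN3, a cytosolic perilipin that moves to newly forming droplets and is made in most tissues, supplied 98.9% to 99.8% of the summed perilipin FPKM in each library. Across all 8 members it held 74.1% to 78.6%, CIDEB 18.5% to 22.6% and BSCL2 1.79% to 3.51%. In mean FPKM, PLIN3 was above 91.7% of all gene entries and PLIN2 above 34.1%. PLIN2, the perilipin that coats droplets in most cells outside fat tissue, was listed in the same low range as the perilipins of fat, muscle and heart. Whether the authors' annotation counted all reads of PLIN2 was not tested, so its level and the PLIN3 share of perilipin FPKM hold for the deposited counts only.

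**Figure D1:**
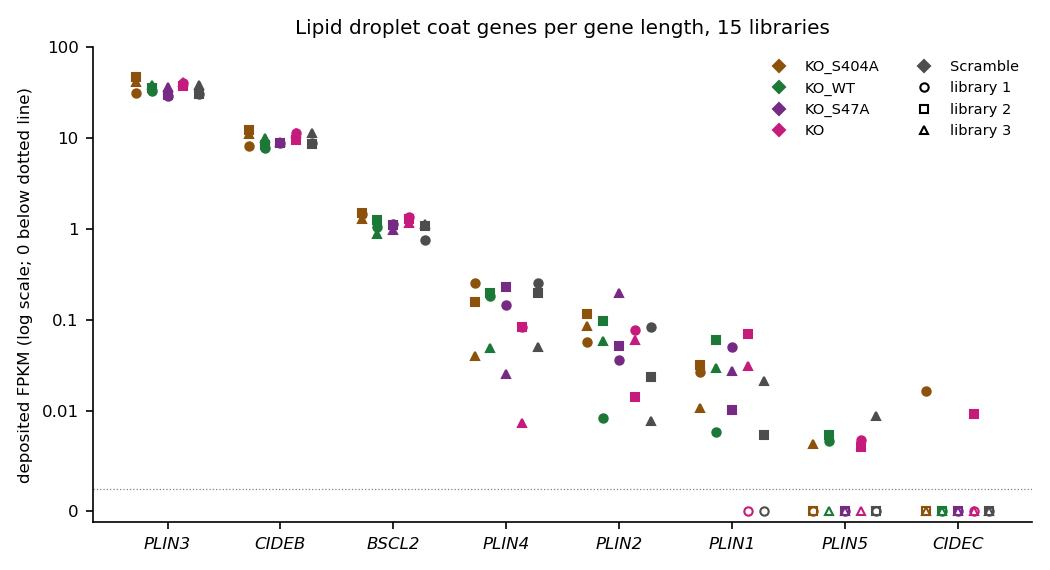
Deposited FPKM on a log axis for each member in the 15 libraries, coloured by line and shaped by library number, with libraries at 0 drawn open below the dotted line. PLIN3 (mean 35.9 FPKM), CIDEB (9.70) and BSCL2 (1.16) form separate bands, and PLIN2 (0.0653) lies with the sparsely counted members.

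PLIN1, PLIN5 and CIDEC were at or near 0. PLIN1, the perilipin of adipocytes, had 72 counts over all 15 libraries and 0 to 14 in any one. Its counts over 3 libraries summed to 15 in KO_S404A, 15 in KO_WT, 17 in KO_S47A, 20 in KO and 5 in Scramble. PLIN5, the perilipin of oxidative tissues such as heart and muscle, had 7 counts in all and was at 0 in 9 libraries. CIDEC, which enlarges droplets in fat cells, had 3 counts in all and was at 0 in 13. In one library 3 counts correspond to 0.0466 to 0.0734 CPM, a floor that covers counting error only. These 3 members did not pass the filter on low counts, and 5 members, PLIN2, PLIN3, PLIN4, CIDEB and BSCL2, were tested.

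To show the start regions behind the members on which the values turn, the 250 bases before the RefSeq start (GRCh38.p14, minus strand, 5′ to 3′) are given for PLIN2, at chr9:19127493-19127742, the perilipin with few counts, for PLIN3, at chr19:4867668-4867917, the abundant one, and for PLIN4, at chr19:4518487-4518736, the one that differed most between libraries. Capitals mark matches, on either strand, to the motifs searched.
PLIN2: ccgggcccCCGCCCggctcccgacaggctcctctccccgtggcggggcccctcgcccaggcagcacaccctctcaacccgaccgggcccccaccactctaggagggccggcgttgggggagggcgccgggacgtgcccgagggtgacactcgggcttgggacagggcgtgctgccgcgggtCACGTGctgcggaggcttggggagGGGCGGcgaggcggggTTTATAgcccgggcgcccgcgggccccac
PLIN3: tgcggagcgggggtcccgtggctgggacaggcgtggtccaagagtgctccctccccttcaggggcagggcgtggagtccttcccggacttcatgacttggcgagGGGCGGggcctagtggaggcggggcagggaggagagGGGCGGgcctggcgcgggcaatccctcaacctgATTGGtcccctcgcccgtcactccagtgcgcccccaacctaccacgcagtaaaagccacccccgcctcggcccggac
PLIN4: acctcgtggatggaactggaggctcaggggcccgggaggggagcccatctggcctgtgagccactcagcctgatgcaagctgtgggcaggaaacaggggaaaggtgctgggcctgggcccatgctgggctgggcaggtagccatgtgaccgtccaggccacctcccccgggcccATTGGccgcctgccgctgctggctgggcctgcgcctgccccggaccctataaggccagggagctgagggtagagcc

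The motifs searched were TATAAA for the TATA box, CCAAT for the box of that name, CACGTG for the E box and GGGCGG for the GC box, on both strands and with overlaps counted. PLIN2's region held 1 TATA box, 1 E box and 2 GC box matches, PLIN3's held 1 CCAAT and 2 GC box matches, and PLIN4's held 1 CCAAT match. Of 35116 RefSeq start regions of the same length, 10.7% held a TATA box match, 32.0% a CCAAT match, 6.34% an E box match and 42.6% a GC box match. The PLIN2 region had 28 CG pairs, more than 84.1% of those regions, against 19 for PLIN3 and 8 for PLIN4. These letter matches describe the regions only.

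PLIN2 was counted in every library, but sparsely. It had 0.145, 0.270 and 0.215 CPM in KO_S404A, 0.0209, 0.239 and 0.149 CPM in KO_WT, and 0.0926, 0.131 and 0.504 CPM in KO_S47A. It had 0.185, 0.036 and 0.150 CPM in KO and 0.225, 0.0621 and 0.0196 CPM in Scramble. A low level in such bulk RNA cannot tell fewer expressing cells from less RNA per cell. The lines overlapped, the highest library was KO_S47A 3 with 25 counts, and the lowest was Scramble 3 with 1 count. All 15 libraries held 125 PLIN2 counts, which gives a pooled level of 0.135 to 0.193 CPM (exact 95% Poisson interval, counting error only). On chromosome 9 its nearest protein-coding neighbours were far better covered. Median FPKM was 61.3 for RRAGA, 9.60 for HAUS6, 4.35 for DENND4C and 2075 for RPS6. In GENCODE 29 (GRCh38) 0 of the 2302 exonic bases of PLIN2 overlapped another gene. The annotation behind the authors' counts is not stated among the sources used.

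**Figure D2:**
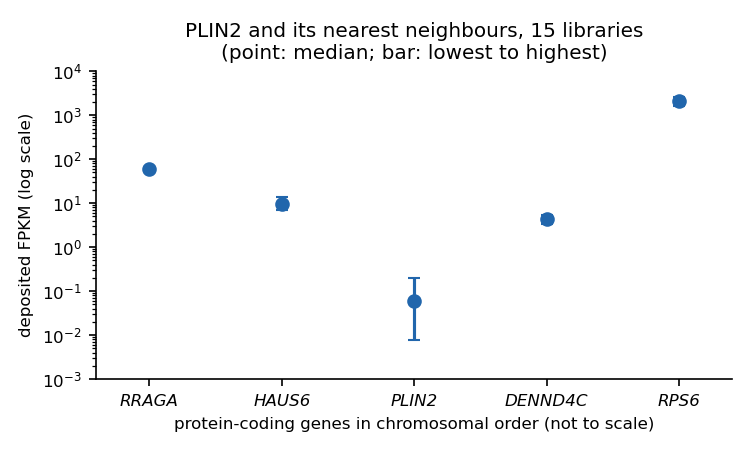
Deposited FPKM on a log axis for PLIN2 and its 4 nearest protein-coding neighbours on chromosome 9, as the median with the lowest and highest of 15 libraries. PLIN2 spans 0.00777 to 0.198 FPKM, below every library of RRAGA, HAUS6, DENND4C and RPS6.

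PLIN3 was close to even across the lines. It had 90.1, 123 and 119 CPM in KO_S404A, 93.2, 97.7 and 108 CPM in KO_WT, and 84.1, 84.7 and 104 CPM in KO_S47A. It had 108, 104 and 116 CPM in KO and 91.7, 90.9 and 109 CPM in Scramble. From high to low the line means ran KO_S404A, KO, KO_WT, Scramble and KO_S47A, and neighbours in that order overlapped. Between KO and Scramble the log2 fold change was 0.17 (SE 0.13, 95% interval -0.11 to 0.45, adjusted p = 0.694, edgeR). For KO_S404A minus KO_S47A, the ends of the order, it was 0.28 (SE 0.13, interval 0.0040 to 0.56, unadjusted p = 0.0472, adjusted p = 0.679). At each library number KO_S47A was below KO, a pattern whose share among all tested genes was not counted. That difference, at -0.27 on the log2 scale (SE 0.13), was not called (adjusted p = 0.308). It passed the threshold once the replicate number was a block (-0.27, SE 0.09, adjusted p = 0.0425), beside 22.1% of all genes. In the same GENCODE annotation, the antisense gene AC027319.1 lies opposite 21.5% of PLIN3 exonic bases. Whether its reads entered the PLIN3 counts was not tested, as the strand setting of the counting is not stated.

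CIDEB, a CIDE protein best known from hepatocytes, where it takes part in loading lipid onto lipoproteins and in droplet fusion, was the second most abundant member. It had 24.7, 33.1 and 33.3 CPM in KO_S404A, 22.9, 24.3 and 29.9 CPM in KO_WT, and 26.6, 26.1 and 27.1 CPM in KO_S47A. It had 32.0, 28.3 and 33.0 CPM in KO and 27.7, 26.8 and 34.3 CPM in Scramble. KO_S47A libraries all lay below the KO libraries, without overlap, which 21.9% of tested genes also showed in that pair, and the other pairs of lines overlapped. The log2 fold change for KO_S47A minus KO was -0.23 (SE 0.14, adjusted p = 0.374). CIDEB values are uncertain. In GENCODE 29, 100% of its exonic bases lie opposite NOP9 (68.1%) or LTB4R2 (31.9%), and the strand setting of the counting is not stated among the sources used. NOP9, a gene for an RNA-binding protein of ribosome synthesis, had a median of 20.6 CPM.

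BSCL2 encodes seipin. It had 5.14, 4.76 and 4.57 CPM in KO_S404A, 3.60, 4.26 and 3.09 CPM in KO_WT, and 4.08, 3.92 and 3.47 CPM in KO_S47A. It had 4.56, 4.45 and 4.06 CPM in KO and 2.83, 3.98 and 3.95 CPM in Scramble. All 3 KO_S404A libraries stood above the 12 others, as for 0.126% of tested genes, and all 3 KO libraries stood above the Scramble libraries, as for 20.7%. The difference did not pass the test. For KO_S404A minus Scramble the log2 fold change was 0.43 (SE 0.17, 95% interval 0.07 to 0.78, unadjusted p = 0.023, adjusted p = 0.218), and the KO minus Scramble value was 0.28 (SE 0.17, adjusted p = 0.562). For KO_S404A minus KO_WT it was 0.40 (SE 0.17, unadjusted p = 0.0297, adjusted p = 0.547). In GENCODE 29, 64.7% of BSCL2 exonic bases are shared on the same strand with the readthrough gene HNRNPUL2-BSCL2, so reads of both cannot be told apart where the counting did not separate them.

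PLIN4, a perilipin of adipocytes that coats young droplets through a long repeat region, was lowest in KO at each library number. It had 1.96, 1.11 and 0.312 CPM in KO_S404A, 1.42, 1.51 and 0.383 CPM in KO_WT, and 1.15, 1.78 and 0.202 CPM in KO_S47A. It had 0.616, 0.649 and 0.0561 CPM in KO and 2.08, 1.59 and 0.391 CPM in Scramble. Library 3 was the lowest library of every line, and the ranges of the lines overlapped. KO was the lowest of the 5 lines at all 3 numbers for 2.76% of tested genes. The log2 fold change was -1.61 for KO minus Scramble (SE 0.93, 95% interval -3.60 to 0.38, adjusted p = 0.536), 1.36 for KO_S404A minus KO (SE 0.92, adjusted p = 0.898), 1.32 for KO_WT minus KO (SE 0.93, adjusted p = 0.641) and 1.25 for KO_S47A minus KO (SE 0.92, adjusted p = 0.442). These 4 comparisons share the KO libraries. With the replicate number as a block, PLIN4 was called in KO minus Scramble (-1.71, SE 0.36, adjusted p = 0.00828, beside 8.29% of all genes) and in KO_S47A minus KO (1.26, SE 0.36, adjusted p = 0.0243, beside 22.1%). It was not called with the block in KO_WT minus KO (1.46, SE 0.37, adjusted p = 0.0944). Within the libraries numbered 1 and 2, PLIN4 was at -1.53 for KO minus Scramble (adjusted p = 0.0385) and at 1.21 for KO_S47A minus KO (adjusted p = 0.0409), both past the threshold, at 1.28 for KO_S404A minus KO (adjusted p = 0.0884) and at 1.21 for KO_WT minus KO (adjusted p = 0.0908). Over all genes, these 2 libraries per line gave 770 calls in KO minus Scramble and 3079 in KO_S47A minus KO. Between the 3 addback lines the PLIN4 log2 fold changes were 0.04 for KO_S404A minus KO_WT (95% interval -1.84 to 1.93), 0.12 for KO_S404A minus KO_S47A (-1.76 to 1.99) and 0.07 for KO_WT minus KO_S47A (-1.82 to 1.97). HDGFL2 lies opposite 0.492% of PLIN4 exonic bases.

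**Figure D3:**
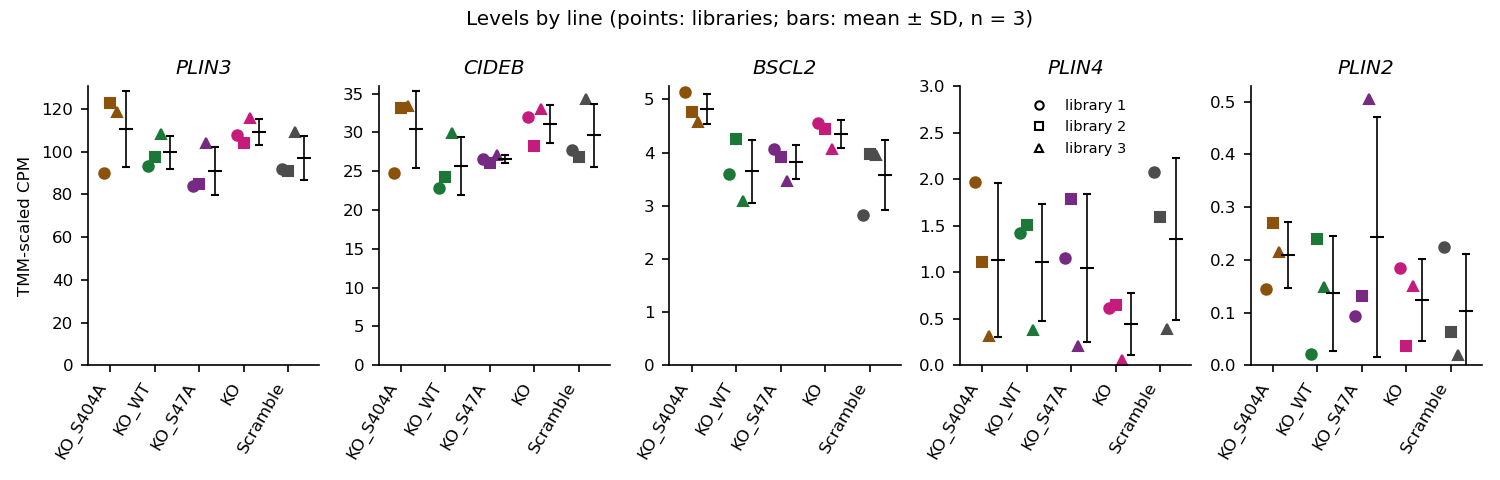
TMM-scaled CPM of the 5 tested members in each library, by line, with the mean and SD of 3 libraries. PLIN3 spans 84.1 to 123 CPM and CIDEB 22.9 to 34.3 CPM. BSCL2 is highest in KO_S404A, and PLIN4 is at 0.0561 CPM in KO library 3 and lowest in library 3 of every line.

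Across the 10 pairwise comparisons of lines, edgeR's quasi-likelihood test called 0 of 5 tested members in each, at an adjusted p under 0.05 over all tested genes. Of the 50 member tests, 3 had an unadjusted p under 0.05, and DESeq2 called 0. The 3 were in KO_S404A minus KO_S47A, KO_S404A minus KO_WT and KO_S404A minus Scramble. Over all 14246 genes, edgeR gave 939, 1239 and 2243 such p-values in these comparisons, and 309 to 2682 across the 10. With the block, members called numbered 1 in KO minus Scramble (PLIN4, beside 8.29% of all genes) and 2 in KO_S47A minus KO (PLIN4 and PLIN3, beside 22.1%). Over all 14246 genes the share called was 3.11% for KO_S404A minus Scramble, 3.47% for KO_WT minus Scramble, 3.82% for KO_S47A minus Scramble and 2.69% for KO minus Scramble. It was 0.0211% for KO_S404A minus KO, 0.0281% for KO_WT minus KO and 0.00702% for KO_S47A minus KO. Among the addback lines it was 0% for KO_S404A minus KO_WT, 0.00702% for KO_S404A minus KO_S47A and 0% for KO_WT minus KO_S47A. With the block it was 10% for KO_WT minus Scramble, 19.5% for KO_S47A minus Scramble, 0.105% for KO_WT minus KO, 0.014% for KO_S404A minus KO_S47A and 0.0211% for KO_WT minus KO_S47A. CPM ranges did not overlap for 1 of 5 members in each of 6 comparisons. This was BSCL2 in KO_S404A minus KO (6.84% of tested genes), KO_S404A minus KO_WT (10%), KO_S404A minus KO_S47A (7.01%), KO_S404A minus Scramble (18.2%) and KO minus Scramble (20.7%), and CIDEB in KO_S47A minus KO (21.9%). It was 0 of 5 in KO_WT minus KO (15.5%), KO_WT minus KO_S47A (5.69%), KO_WT minus Scramble (23.1%) and KO_S47A minus Scramble (25%). The joint test of any difference among the 5 lines called 2.37% of genes and 0 of 5 members, with adjusted p from 0.393 for BSCL2 to 0.766 for PLIN2. The median log2 fold change of the 5 members was 0.17 in KO minus Scramble, beside 0.02 over all tested genes. Standard errors were 0.13 for PLIN3, 0.14 for CIDEB and 0.17 for BSCL2 in KO minus Scramble, and the intervals ran no further than -0.23 to 0.64. For PLIN4 and PLIN2 the standard errors were 0.93 and 0.97, and the PLIN2 interval was -1.77 to 2.41.

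**Figure D4:**
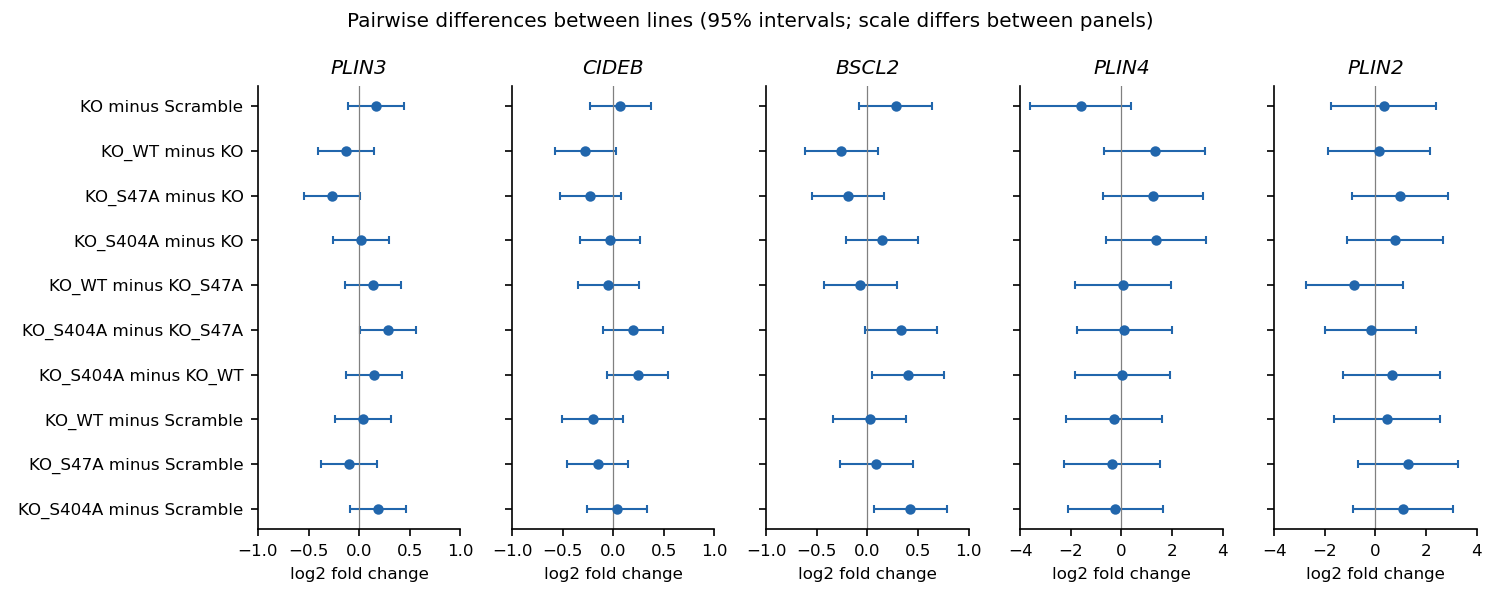
Log2 fold change with its 95% interval for the 5 tested members in 10 comparisons of lines, with a wider scale for PLIN4 and PLIN2. BSCL2 in KO_S404A minus Scramble (0.07 to 0.78) and in KO_S404A minus KO_WT, and PLIN3 in KO_S404A minus KO_S47A, are the intervals that leave out 0, and PLIN4 in KO minus Scramble spans -3.60 to 0.38.

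PLIN4 fell and PLIN3 and CIDEB rose in the libraries numbered 3. Libraries numbered 3 differed from those numbered 1 and 2 in 3 of 5 tested members, PLIN4, PLIN3 and CIDEB, against 46.1% of all tested genes (22.4% higher and 23.7% lower). PLIN4 averaged 0.269 ± 0.141 CPM in the 5 libraries numbered 3 and 1.39 ± 0.505 CPM in the 10 others, a log2 fold change of -2.41 (SE 0.26, 95% interval -2.96 to -1.86, adjusted p = 2.40e-06). All 5 lay below the 10 others, as for 5.35% of tested genes. The ratio of library 3 to the mean of libraries 1 and 2 was 0.203 in KO_S404A, 0.262 in KO_WT, 0.138 in KO_S47A, 0.0887 in KO and 0.213 in Scramble. Only 0.569% of tested genes had a lower log2 fold change in this contrast. PLIN3 averaged 111 ± 5.94 CPM in the libraries numbered 3 and 96.7 ± 12.0 CPM in the others (log2 fold change 0.21, SE 0.06, adjusted p = 0.0109). A lower log2 fold change than that of PLIN3 was found in 76.2% of tested genes. CIDEB averaged 31.5 ± 2.94 CPM and 27.2 ± 3.25 CPM (0.21, SE 0.07, adjusted p = 0.0182), a call lost without Scramble 3 (adjusted p = 0.0723) or KO_WT 3 (0.0747). PLIN2 was at 0.45 (SE 0.58, adjusted p = 0.557) and BSCL2 at -0.12 (SE 0.11, adjusted p = 0.389).

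The PPAR target genes, a list of 20 known PPAR-responsive genes outside the members, were set beside PLIN4 in the same contrast. Of 16 tested, 1 rose and 7 fell in the libraries numbered 3, with a median log2 fold change of -0.14, beside -0.02 over all tested genes. Over all tested genes 22.4% rose and 23.7% fell, so the called share, 8 of 16, was near the 46.1% of all genes. FGF21, a hormone of fasting, fell by 3.82 on the log2 scale (SE 0.34), to 0.289 ± 0.265 CPM in the libraries numbered 3, against 3.97 ± 1.95 CPM in the others. PDK4, which restrains pyruvate oxidation, fell by 2.07 (SE 0.52, adjusted p = 0.00405) and ANGPTL4, an inhibitor of lipoprotein lipase, by 1.61 (SE 0.51, adjusted p = 0.016). ACSL1, a fatty acid activating enzyme, fell by 0.45 (SE 0.06). HILPDA (listed as C7orf68), an inhibitor of ATGL, rose by 0.67 (SE 0.08), to 56.2 ± 6.74 CPM against 35.3 ± 5.58 CPM. PDK4 and ANGPTL4 were sparse, with at most 15 and 27 counts in a library. Of 9 tested PPAR receptors and partners 2 rose and 3 fell, also near the 46.1% of all genes called. PPARG was at -0.70 (SE 0.11) and RXRB at -0.52 (SE 0.07). NCOR1, a corepressor, was at -0.20 (SE 0.07), and the coactivators PPARGC1A and PPARGC1B were at 0.41 (SE 0.15) and 0.34 (SE 0.12). PPARGC1B lost its call without KO_S404A 3 (adjusted p = 0.104) or KO_WT 3 (0.107). PPARGC1A lost it without KO_WT 2 or 3 or KO_S47A 1 or 3 (adjusted p = 0.0513 to 0.116). NCOR1 lost it without KO_S404A 2 or 3, KO_WT 2, any KO_S47A library, KO 1 or 3 or Scramble 1 (adjusted p = 0.0504 to 0.146).

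**Figure D5:**
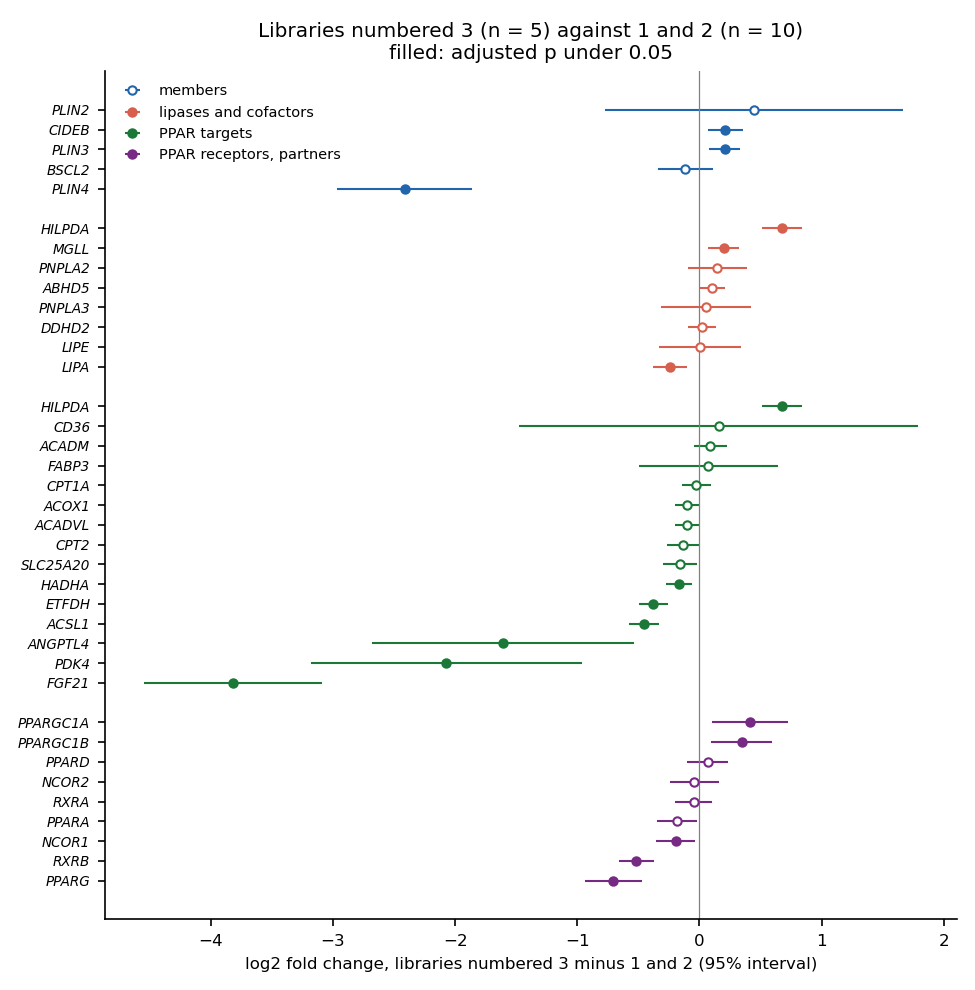
Log2 fold change, libraries numbered 3 minus those numbered 1 and 2, with its 95% interval, for the tested members, the droplet lipases and cofactors, the PPAR targets but 1 and the PPAR receptors and partners. Filled points passed an adjusted p of 0.05. PLIN4 (-2.41), PDK4 (-2.07) and FGF21 (-3.82) lie far to the left, while PLIN3 and CIDEB (both 0.21) lie just right of 0.

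Other droplet proteins moved in both directions in that contrast. Of 35 tested out of 40, 11 rose and 7 fell, with a median of -0.01, and the 18 called were likewise near the share over all genes. SOAT1, which makes cholesteryl ester, rose by 0.57 (SE 0.06), ACSL3, the acyl-CoA synthetase of nascent droplets, by 0.54 (SE 0.07) and DGAT2, a last-step triglyceride synthase, by 0.50 (SE 0.08). RAB8A, a small GTPase of membrane traffic, and METTL7A, a droplet-associated methyltransferase-like protein, rose by 0.41 (SE 0.07) and 0.39 (SE 0.06). Those that fell most were AIFM2, at -0.75 (SE 0.29, adjusted p = 0.0472), HSD17B7, a sterol synthesis enzyme, at -0.51 (SE 0.11), SPART (listed as SPG20), at -0.43 (SE 0.07), UBXN4 at -0.36 (SE 0.07) and VPS13C, a lipid transfer protein, at -0.29 (SE 0.06). AIFM2 lost its call without KO_S404A 1 or 3, KO_WT 1, any KO_S47A library, KO 2 or Scramble 2 or 3 (adjusted p = 0.067 to 0.201). Of 8 tested droplet lipases and cofactors 2 rose (HILPDA and MGLL, the monoacylglycerol lipase) and 1 fell (LIPA, the lysosomal acid lipase, at -0.24, SE 0.07), beside 46.1% of all genes called. MGLL, at 0.20 (SE 0.06), lost its call without Scramble 3 (adjusted p = 0.058). Markers of other cell types, 13 in all, had 5 tested, of which 1 rose and 2 fell with library number 3, beside the same 46.1%. Their part in the result was not tested.

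SPART, which binds droplets and helps their turnover, averaged higher in each of the 4 knockout lines than in Scramble, and VPS13A, a lipid transfer protein, averaged lower. SPART averaged 96.8 ± 28.7 CPM in KO_S404A, 108 ± 18.0 CPM in KO_WT, 121 ± 20.5 CPM in KO_S47A, 90.7 ± 4.30 CPM in KO and 51.5 ± 7.26 CPM in Scramble (SD, n = 3 each). VPS13A averaged 115 ± 5.68 CPM in KO_S404A, 107 ± 5.69 CPM in KO_WT, 108 ± 2.00 CPM in KO_S47A, 119 ± 12.9 CPM in KO and 147 ± 7.32 CPM in Scramble. In KO minus Scramble neither passed the test, with SPART at 0.82 (SE 0.21, adjusted p = 0.0525) and VPS13A at -0.31 (SE 0.09, adjusted p = 0.0927), and both passed it with the block (adjusted p = 0.000198 and 0.0293). Of 35 other droplet proteins tested, edgeR called 2 in KO_S404A minus Scramble, 3 in KO_WT minus Scramble and 2 in KO_S47A minus Scramble. In KO minus Scramble it called 0, with 4 at an unadjusted p under 0.05 and 2 called by DESeq2. Over all 14246 tested genes, 1817 had an unadjusted p under 0.05 by edgeR in that comparison, and DESeq2 called 689. Beside the 2.69% to 3.82% of all genes called against Scramble, counts this small do not set the list apart. With the block 3 were called in KO minus Scramble (beside 8.29% of all genes) and 4 in KO_WT minus Scramble (10%). The block called 8 in KO_S47A minus Scramble (19.5%) and 7 in KO_S47A minus KO (22.1%). SPART rose in all 3 addback lines against Scramble, with log2 fold changes of 0.91 in KO_S404A (SE 0.21, adjusted p = 0.0286), 1.07 in KO_WT (SE 0.21, adjusted p = 0.0097) and 1.24 in KO_S47A (SE 0.21, adjusted p = 0.00389). The same comparisons, which share the Scramble libraries, gave VPS13A at -0.35, -0.46 and -0.44 (SE 0.09 each, adjusted p = 0.046, 0.0098 and 0.0128). HSD17B11, a droplet-bound steroid dehydrogenase, rose by 0.61 in KO_WT minus Scramble (SE 0.13, adjusted p = 0.0164). SPART kept its call in KO_S47A minus Scramble in every setting tried. In KO_WT it lost it without KO_WT 1 (adjusted p = 0.0516) or Scramble 3 (0.0569), and in KO_S404A without KO_S404A 1 or 2 or any Scramble library (0.0652 to 0.121). VPS13A lost its call without Scramble 1 in all 3 comparisons, and also without KO_WT 1, KO_S47A 2, or, in KO_S404A, KO_S404A 1 or 3 or any Scramble library (0.0552 to 0.178). HSD17B11 lost it without KO_WT 1 or 2 or Scramble 1 or 2 (0.0723 to 0.0933). Fitted on the 2 groups alone, calls were lost for SPART (adjusted p = 0.168) and VPS13A (0.232) in KO_S404A minus Scramble and for HSD17B11 in KO_WT minus Scramble (0.0615). VPS13A in KO_S404A minus Scramble was also lost with libraries numbered 1 and 2 only (0.0595).

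Among the lipases, MGLL rose by 0.65 in KO minus Scramble (SE 0.13, adjusted p = 0.0119) and by 0.63 in KO_S404A minus Scramble (SE 0.13, adjusted p = 0.0133). It lost the first call without KO 3 or Scramble 1 or 2 (adjusted p = 0.0634 to 0.0744) and the second without KO_S404A 2 or Scramble 1 or 2 (0.0599 to 0.0725). Of 16 tested PPAR targets, 1 was called in KO minus Scramble, SLC25A20, the mitochondrial carrier of acylcarnitine, at -0.60 (SE 0.12, adjusted p = 0.016). SLC25A20 was at -0.48 in KO_S404A minus Scramble (SE 0.12, adjusted p = 0.0489). Both calls were lost without Scramble 1 or 2, the first also without KO 1 or 3 and the second without KO_S404A 2 or 3 (0.0549 to 0.211). CPT1A, which admits fatty acids to mitochondria, was at -0.38 in KO_S47A minus Scramble (SE 0.09, adjusted p = 0.0299), and it lost this without KO_S47A 1 or 2 or any Scramble library (0.0688 to 0.142). RXRA, the partner of PPAR receptors, was at -0.45 both in KO_WT minus Scramble (SE 0.11, adjusted p = 0.0462) and in KO_S47A minus Scramble (SE 0.11, adjusted p = 0.0431), and each was lost without any 1 of its 6 libraries (0.0638 to 0.163). The 2 groups alone lost MGLL (adjusted p = 0.172) and SLC25A20 (0.250) in KO_S404A minus Scramble and CPT1A in KO_S47A minus Scramble (0.0791). SLC25A20 in KO_S404A was also lost with no low-count filter (0.0555), and RXRA with libraries numbered 1 and 2 only (0.0735 in KO_WT and 0.0543 in KO_S47A). With the block, PPAR targets called of 16 numbered 5 in KO minus Scramble (beside 8.29% of all genes) and 3 in KO_WT minus Scramble (10%). They numbered 1 in KO_S47A minus Scramble (19.5%), 1 in KO_WT minus KO (0.105%) and 3 in KO_S47A minus KO (22.1%). PPAR receptors and partners called of 9 with the block numbered 3 in KO_WT minus Scramble, 4 in KO_S47A minus Scramble and 1 in KO_S47A minus KO, beside the same shares. Droplet lipases and cofactors called of 8, PNPLA2 among them, numbered 2 in each of these 3.

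Among tested genes averaging 10 CPM or more, those whose log2 CPM followed a member most closely over the 15 libraries were named as a description, with Pearson's r. For PLIN4 they were ATXN1 (r = 0.93), RBM24 (0.93) and CD55 (0.92), for PLIN3 CABLES1 (0.96) and SLC27A4 (0.95), and for CIDEB KPNB1 (0.97), KLHL18 (0.97) and GATAD2A (0.97). BSCL2 was followed less closely, by ZNF776 (0.78), USP21 (0.76) and DNAJC14 (0.76), and PLIN2 by UNK (0.68), PIGO (0.67) and ARHGEF7 (0.66). Over 9232 candidate genes the 99th percentile of r was 0.91 for PLIN3, 0.87 for PLIN4, 0.93 for CIDEB, 0.61 for BSCL2 and 0.49 for PLIN2. Among the members, r was 0.80 between PLIN3 and CIDEB, -0.69 between PLIN3 and PLIN4, and -0.63 between CIDEB and PLIN4. The 15 points share their library numbers.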

How the data were processed

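Poly(A) RNA was sequenced in 15 libraries prepared with a directional kit, per the labels' protocols. Each deposited table holds raw read counts by gene. FPKM values stand beside them, which the authors divided by gene length and library total. The submitters' processing notes name CASAVA and STAR. No build, annotation or strand setting is stated among the sources used. Unassigned reads, 13.2% to 20.6% of a library, entered neither library sizes nor tests. Reads left out as ambiguous between genes were 2.02% to 2.18%.

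The 8 members and the other gene lists were chosen with earlier results of these data known. Counts were analysed in R 4.3.3 with edgeR 4.0.16. Genes kept by filterByExpr numbered 14246, library sizes were scaled by TMM, and a quasi-likelihood model with 1 mean per line was fitted to all 15 libraries, with 10 residual degrees of freedom. Adjusted p-values are Benjamini-Hochberg over all tested genes of a comparison, come from this test unless another is named, and are called under 0.05. The SE was taken as the size of the log2 fold change over the root of its F statistic, and 95% intervals use the degrees of freedom of that test. Library number 3 was tested with a term beside line. All members, PNPLA2, the 5 called genes per direction with the largest fold in each list and the 3 genes most alike each member were to be named, with the cell type markers given as counts and sums. For 2 genes that this rule names, values are not reported here. RefSeq start regions (GRCh38.p14) were matched by symbol, for 8 of 8 members. Chi-square per degree of freedom between libraries of a line was 8.34 to 252, so all were kept as separate samples. The test was checked on simulated counts that held no shift by library number, so the check does not cover such a shift. Same-numbered libraries deviated together (r over 0.1 in all 3 pairs) in 8 of 10 comparisons, at r of 0.126 to 0.675, and there the replicate number was read as pairing. KO_S404A against KO and against Scramble had 1 pair each under 0.1 (0.02 and 0.07). Deviations were taken from the mean of each line, so a shift of the libraries numbered 3 alone also raises these r. Between different numbers r ran from -0.606 to 0.427. The r therefore cannot tell pairs numbered 1 or 2 from such a shift. DESeq2 1.42.0, other scaling, no filter, fewer samples and a replicate block were tried as alternatives.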

Additional observations from a re-analysis of the deposited data

How the results depend on the processing

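In the 10 line comparisons the count of called members stayed at 0 under RLE size factors, DESeq2, no low-count filter, the 2 groups alone and leaving out each replicate in turn (0 to 0). With libraries numbered 1 and 2 only, it was 1 in KO minus Scramble and 1 in KO_S47A minus KO, PLIN4 in both, as given above. Over all genes the calls there were 770 and 3079. For the 2 comparisons not read as paired and the joint test the block stands here only, and 9 of 15 libraries correlated best with their own number. With the replicate number as a block, called members numbered 1 in KO minus Scramble (PLIN4, -1.71, adjusted p = 0.00828), 2 in KO_S47A minus KO (PLIN4, 1.26, adjusted p = 0.0243, and PLIN3, -0.27, 0.0425) and 1 in the joint test of the 5 lines (PLIN4, 0.0276), and 0 in the other 8 line comparisons, and it changed no other member's call. Over all genes the block called 8.29% in KO minus Scramble, 22.1% in KO_S47A minus KO and 22.9% in the joint test. For libraries numbered 3, leaving out 1 replicate gave 2 to 3 called members. Over 690 values of single members, 635 kept their side of the threshold and their sign, 48 uncalled ones changed sign, 5 passed the threshold and 2 no longer did.

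Over all genes the calls in KO minus Scramble were 383, against 689 by DESeq2, 770 with libraries numbered 1 and 2 only and 1181 with the block, an order kept in the values below. In KO_WT minus Scramble they were 494, against 868, 737 and 1429, in KO_S47A minus Scramble 544, against 1093, 2159 and 2783, and in KO_S404A minus Scramble 443, against 894, 975 and 1522. With the 2 groups alone they were 326 in KO_WT minus Scramble, 285 in KO_S47A minus Scramble and 140 in KO_S404A minus Scramble. In KO_S47A minus KO they were 1, against 33, 3079 and 3150, in KO_S404A minus KO 3, against 8, 403 and 14, and in KO_WT minus KO 4, against 8, 30 and 15, with 1 in KO_S404A minus KO and 2 in KO_WT minus KO from the 2 groups alone. In the joint test they were 338, against 1076, 2527 and 3256. The causes of these shifts were not tested. Low counts limit PLIN1, PLIN2, PLIN5 and CIDEC. PLIN4 had 3 to 122 counts in a library. Its SE in KO minus Scramble was 0.93 and, with the block, 0.36, against 0.97 and 1.00 for PLIN2. How far low counts limit PLIN4 was not tested. Overlapping genes limit CIDEB and BSCL2. Overlap also reaches PLIN3, with 21.5% of exonic bases opposite AC027319.1, and PLIN5, with 12.6% shared on the same strand with AC011498.4.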
